A study of Rattus norvegicus with 25 samples.

Results

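The comparison described here sets 1 stable line of rat hepatoma cells that carried Sar1A against 2 lines without a Sar1 construct. Members were the 4 arrays labelled Sar1A and the 5 arrays labelled control line 1 or 2, together 9 of the 25 arrays of the series, and all genes on the array were compared. McArdle-RH7777 cells come from a rat liver tumour and make and release apoB-containing lipoproteins. Every line carried a tetracycline repressor vector (pcDNA6/TR) and a tetracycline-operator vector (pcDNA4/TO), was kept in 10 µg/ml blasticidin and 250 µg/ml zeocin, and received 1 µg/ml tetracycline for 24 h before RNA was taken. In the Sar1A line the operator vector encoded human SAR1A with a FLAG tag at its carboxyl end, and in the control lines it was empty. Sar1A was represented by 1 line, so an effect of Sar1A and a property of that single stable line cannot be told apart. The 2 control lines had 2 and 3 arrays. The Sar1B group, 2 lines with 4 arrays each that overexpressed human SAR1B, was used as a reference, because the array codes in the titles place the controls in one array series and all Sar1 lines in another. Sar1A and array series therefore cannot be told apart in the comparison with control, and only the comparison with Sar1B lies within 1 series. A further 2 lines with the constitutively active mutant Sar1B:H79G entered the fit and are given as values beside some genes.

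Sar1 proteins are small GTPases that start the assembly of the COPII coat, the protein shell of vesicles that leave the endoplasmic reticulum (ER) for the Golgi. In the GTP-bound state Sar1 inserts into the ER membrane and recruits the inner coat of Sec23 and Sec24, which binds cargo, and then the outer coat of Sec13 and Sec31. Hepatocytes use this route for plasma proteins and for apoB lipoproteins, and mammals have the paralogs Sar1a and Sar1b.

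Levels are log2 signals of Affymetrix rat genome arrays, and a gene is represented by its brightest probe set. A difference of 1 on this scale is a doubling. Array values were averaged per line, line means were compared with limma, and a probe set was called at a Benjamini-Hochberg adjusted p under 0.05 over all 31042 probe sets tested. The arrays of a line are technical replicates by the study's methods, so that the spread between lines, not arrays, entered the test, and the fit gave the lone Sar1A line the spread of the other groups. The median correlation between arrays was 0.995 within the Sar1A line, 0.992 between the 2 control lines, 0.980 between Sar1A and control and 0.989 between Sar1A and Sar1B. Poly-A spike-in controls, which are added to RNA before labelling, had a mean 5′ minus 3′ difference of -0.80 in the Sar1A line, -1.57 and -1.62 in control lines 1 and 2, and -0.73 to -0.80 in the other lines. The 5′ minus 3′ difference of β-actin was -0.61 in Sar1A, -0.81 and -0.94 in the control lines, and -0.50 and -0.49 in the Sar1B lines. These measures of 5′ signal moved with the array series, and their part in the gene results was not tested.

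Rat Sar1a, the counterpart of the human transgene, was examined first. Sar1a had log2 signals of 12.90, 13.09, 13.03 and 13.38 on the 4 Sar1A arrays, 11.41 and 11.52 on the arrays of control line 1, and 11.29, 11.30 and 11.34 on those of control line 2. All Sar1A arrays lay above all control arrays, as did those of 18.6% of all probe sets. The mean was 13.10 ± 0.20 (SD, n = 4 arrays of 1 line) against 11.39 ± 0.12 (SD, n = 2 lines), a difference of 1.72 (95% interval 1.13 to 2.31, limma adjusted p = 0.043), or 3.29-fold. The means of the Sar1B and Sar1B:H79G groups were 11.75 and 12.88, so that a high signal of this probe set was not particular to the Sar1A line. A dimmer probe set of Sar1a was at 12.07 in Sar1A and at 11.94 and 11.80 in the control lines, a difference of 0.20 (limma adjusted p = 0.64). This dimmer set had Sar1B and Sar1B:H79G group means of 11.80 and 12.79, so that it was high in Sar1B:H79G and near control in Sar1A. Whether either rat probe set binds the human transgene RNA was not tested. Sar1b was at 11.19 in Sar1A and at 11.52 and 11.39 in the control lines, a difference of -0.26 (limma adjusted p = 0.18). Without control line 1 the adjusted p of the brighter Sar1a probe set was 0.085, and without control line 2 it was 0.22.

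Hepatocyte markers were at 10.48 to 14.49 in Sar1A. Of 9 measured 0 were called, 3 differences were positive and 6 negative, and the median was -0.08 (-0.25 with quantile normalization). α-Fetoprotein (Afp) was at 14.49 in Sar1A and 14.24 and 13.87 in the control lines, the plasma protein fetuin-A (Ahsg) at 13.94 against 13.63 and 13.24, and transthyretin (Ttr) at 13.59 against 13.93 and 13.74. The protease inhibitor α1-antitrypsin (Serpina1) was at 12.57 in Sar1A, below 13.35 and 13.04 in the control lines, a difference of -0.63 (limma adjusted p = 0.14; 0.048 with quantile normalization). Albumin (Alb), a defining hepatocyte protein, was lower than these in all 3 lines and spread widely between the controls, at 10.48 in Sar1A and 12.15 and 10.66 in the control lines. The 5 endothelial markers lay between 6.51 and 7.86 in Sar1A, below the median probe set of 8.13, and the 8 fibroblast and stellate cell markers between 6.74 and 9.79. The 5 cholangiocyte markers held a dim Krt19 (7.36) and Krt7 (7.27) beside a bright Spp1 (12.61) and Epcam (10.12), and the 6 immune cell markers lay between 7.31 and 8.70. Of the markers of these 4 other cell types 0 were called, where 0.865% of all genes were. By the study's methods, stable lines were expanded from picked clones of hepatoma cells. In bulk RNA, fewer cells with a transcript and less of it per cell cannot be told apart.

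Over all probe sets, 309 were higher (0.995%) and 58 lower (0.187%) in Sar1A than in control, 367 in all (1.18%). Among 14217 genes, 94 rose (0.661%) and 29 fell (0.204%), together 0.865%, with median differences of 0.80 and -0.76. The median over all genes was 0.02. The balance of directions depended on the scaling. With quantile normalization 368 probe sets were higher and 144 lower, the median over all genes was -0.03, and the genes at an unadjusted p under 0.05 went from 1605 higher and 1212 lower to 1070 and 1813. All 367 called probe sets had arrays that did not overlap between Sar1A and control, but so did 18.6% of all probe sets above and 10.4% below the controls. Non-overlap of arrays is therefore no added support for a called gene. The rule that named the largest rises and falls also required it. Against Sar1B, within the array series, 1 probe set was called (0.00322%), that of Rab37, while 701 probe sets were higher (2.26%) and 1335 lower (4.30%) at an unadjusted p under 0.05. Among genes these were 427 and 780. The 94 genes that rose against control had a median difference of 0.16 against Sar1B, and the 29 that fell one of -0.34. Each of these genes was chosen for its Sar1A value, which enters both differences, so these medians are a description. For the same genes the Sar1B lines differed from control by a median of 0.57 and -0.41, and the Sar1B:H79G lines by 0.69 and -0.73. Calls were also more frequent among dimmer probe sets of genes with several probe sets. Of 6609 such probe sets 174 were higher and 10 lower, which is 2.78% against 0.865% of the brightest. In the 161 genes called only by a dimmer probe set, the dimmer sets had a median difference of 0.90 and the brightest ones a median of 0.26. The number of calls rested on few lines. It was 0 without control line 1 and 0 without control line 2 (7636 and 4369 at an unadjusted p under 0.05, and 7069 with all lines). It was 100 when either one of the Sar1B lines was left out and 369 when either one of the Sar1B:H79G lines was. At the limit of the call stood Akirin2, with a difference of 0.75 at an adjusted p of 0.0498, and just outside it Fubp1, with 0.69 at 0.0504.

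**Figure D1:**
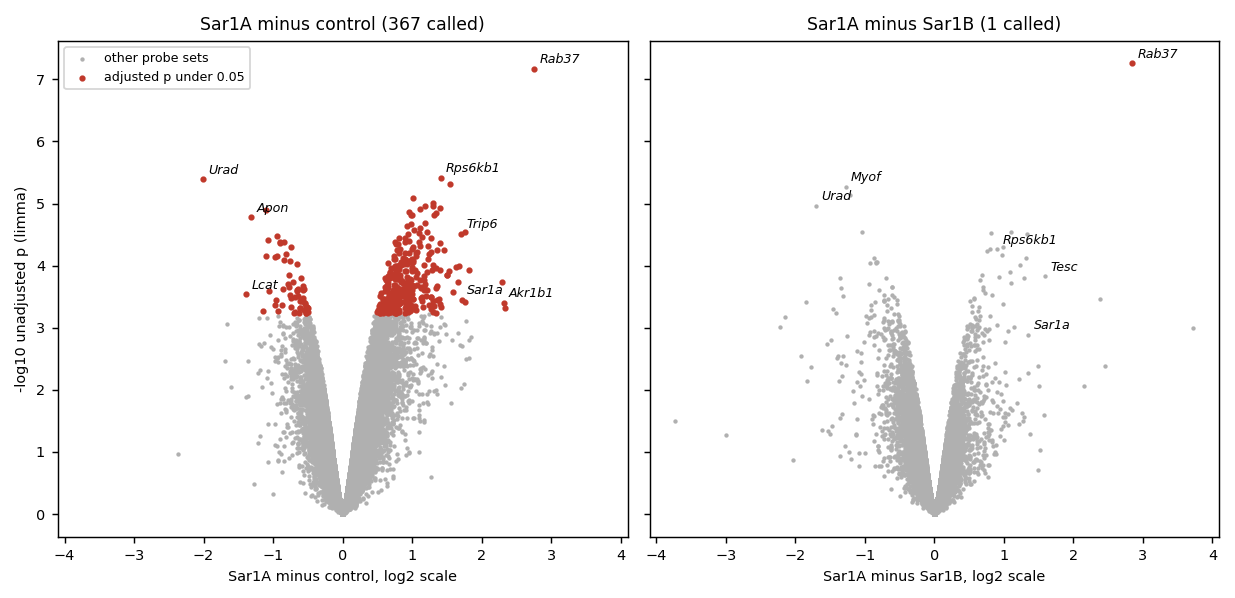
Difference of log2 signals (x axis) against -log10 of the unadjusted limma p (y axis) for 31042 probe sets, for Sar1A minus control (left) and Sar1A minus Sar1B (right), with probe sets at an adjusted p under 0.05 in red. On the left 367 probe sets were called, mostly to the right of 0, and on the right 1, that of Rab37.

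The largest rise was that of Rab37, which encodes a small GTPase of secretory granule and vesicle exocytosis. Its signals were 10.84, 10.56, 10.64 and 10.60 on the Sar1A arrays, 7.92 and 7.82 in control line 1, and 7.93, 8.02 and 7.90 in control line 2. Every Sar1A array lay far above every control array. No called probe set had overlapping arrays. The difference was 2.75 (standard error 0.09, 95% interval 2.53 to 2.98, limma adjusted p = 0.0021), or 6.75-fold. Rab37 was also 2.84 higher in Sar1A than in Sar1B (95% interval 2.62 to 3.07, limma adjusted p = 0.0017), and the Sar1B and Sar1B:H79G group means were 7.82 and 7.97. High Rab37 was therefore measured in the Sar1A line and in none of the 6 other lines. Leaving out control line 1 or 2 raised the adjusted p of the comparison with control to 0.065 and 0.12. Of 56 Rab GTPases measured, Rab37 was the only one called, where 0.865% of all genes were. At an unadjusted p under 0.05, 9 were higher and 4 lower (11.3% and 8.53% of all genes). With quantile normalization 5 and 9 were, against 1070 and 1813 of all 14217 genes.

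**Figure D2:**
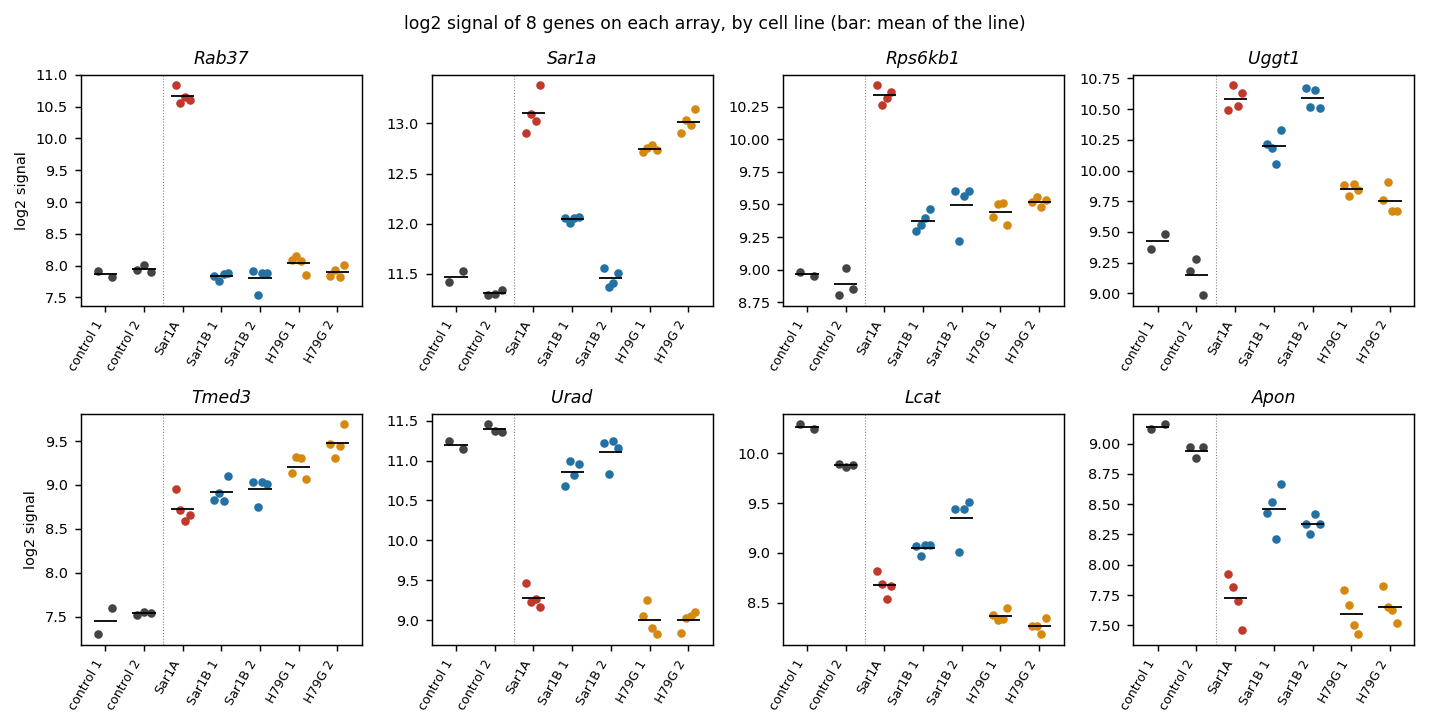
log2 signal of 8 genes on every array (points) with the mean of each cell line (bars), with the controls left of the dotted line and the lines of the other array series right of it. Rab37 stood at 10.56 or more on the Sar1A arrays alone, Uggt1 and Tmed3 were low in both control lines, and Lcat and Apon were high in them, while Urad was high in the control and Sar1B lines and low in the Sar1A and Sar1B:H79G lines.

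Of the other large rises, some lay above Sar1B as well and some did not, but none was called against Sar1B. Each was chosen for its Sar1A value, which enters both differences, so this is a description. Rps6kb1, the S6 kinase that acts downstream of mTORC1 in the control of protein synthesis, had 10.42, 10.26, 10.32 and 10.36 on the Sar1A arrays, 8.98 and 8.95 in control line 1 and 8.80, 9.02 and 8.85 in control line 2. The groups did not overlap, as in all called probe sets. The difference was 1.41 against control (limma adjusted p = 0.030) and 0.90 against Sar1B (limma adjusted p = 0.15). Its dimmer probe set differed from control by 0.45 (adjusted p = 0.125). Tesc, which encodes the calcium-binding protein tescalcin, had 9.69, 9.39, 9.58 and 9.58 on the Sar1A arrays, 8.43 and 8.45 in control line 1 and 7.99, 7.95 and 7.96 in control line 2, with differences of 1.36 against control (adjusted p = 0.043) and 1.59 against Sar1B (adjusted p = 0.18). By contrast Akr1b1, the aldose reductase of the polyol pathway, differed from control by 2.32 (adjusted p = 0.044) and from Sar1B by -0.03, with a 95% interval of -0.84 to 0.78. Its control lines also lay apart, at 9.15 and 8.31. Its dimmer probe set differed by 0.01 from control. The cohesin loader Nipbl, the RNA helicase Ddx6, the co-chaperone Dnajb6, the BMP receptor Bmpr2 and the pseudogene Ddx3x-ps1 rose by 1.27 or more against control and had values of -0.36 to -0.02 against Sar1B. The zyxin-family protein Trip6 rose by 1.70 (adjusted p = 0.033), the autophagy regulator Wac by 1.21 (0.033) and the carboxypeptidase Cpd by 1.18 (0.039). Against Sar1B these were at 0.32, 0.25 and -0.37, and the Sar1B lines themselves stood 1.38, 0.96 and 1.55 above control. Akr1b1, Nipbl, Bmpr2, Ddx6 and Cpd had further, dimmer probe sets, of which 0 were called. Over the 15 largest rises the adjusted p was 0.065 to 0.085 without control line 1 and 0.12 to 0.22 without control line 2.

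In the COPII list, 19 genes were measured, of which Sar1a rose, Sec16b fell and the others were not called. Of all genes, 0.661% rose and 0.204% fell. The median difference of the list was -0.01 against 0.02 for all genes. Sec16b, an organizer of ER exit sites, had 7.58, 7.73, 7.47 and 7.55 in Sar1A, 8.07 and 8.28 in control line 1 and 8.21, 8.29 and 8.04 in control line 2. It was lower on all Sar1A arrays, as was every probe set called lower. The fall was 0.59 (limma adjusted p = 0.037, 0.071 without control line 1 and 0.18 without control line 2). However, its mean over all arrays of 7.81 lay below the median probe set. The outer coat genes Sec13 and Sec31a had differences of -0.01 (standard error 0.11) and 0.09 (standard error 0.14) from control. The inner coat gene Sec23b had 0.26 (adjusted p = 0.17) and Klhl12, an adaptor of a ubiquitin ligase that modifies Sec31, -0.47 (adjusted p = 0.12). In this list 2 members were higher and 4 lower at an unadjusted p under 0.05, where 11.3% and 8.53% of all genes were. With quantile normalization the median of the list was -0.17, against -0.03 for all genes.

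Cargo receptors and ER folding factors held 3 further rises, where 0.661% of all genes rose and 0.204% fell. Tmed3, a p24-family cargo receptor, had 8.95, 8.72, 8.59 and 8.66 in Sar1A, 7.30 and 7.60 in control line 1, and 7.52, 7.56 and 7.54 in control line 2. Lman1 (ERGIC-53), which carries coagulation factors from the ER, had 10.02, 9.98, 9.88 and 10.02 in Sar1A, 8.98 and 9.11 in control line 1, and 8.98, 8.99 and 8.86 in control line 2. Uggt1, the glucosyltransferase that senses misfolded glycoproteins, had 10.50, 10.70, 10.52 and 10.63 in Sar1A, 9.36 and 9.49 in control line 1, and 9.18, 9.28 and 8.99 in control line 2. In each of these genes every Sar1A array lay above every control array, as in all probe sets called higher. The differences were 1.24 for Tmed3 (limma adjusted p = 0.033), 0.98 for Lman1 (0.030) and 1.30 for Uggt1 (0.044). Against Sar1B they were -0.21 (95% interval -0.51 to 0.09), -0.14 (-0.33 to 0.06) and 0.19 (-0.26 to 0.64), so that none stood above Sar1B beyond the spread between lines. Of 25 cargo receptors 6 were higher and 1 lower at an unadjusted p under 0.05 (11.3% and 8.53% of all genes). With quantile normalization 3 and 4 were, against 1070 and 1813 of all 14217 genes. The list median was 0.15 (-0.05 with quantile normalization). Of 29 ER chaperones 4 were higher and 1 lower (2 and 5 with quantile normalization), with a median of 0.13 (-0.03 with quantile normalization). Of 40 SNARE, tether and COPI genes 0 were called. The largest differences were those of the SNARE Ykt6 (0.50, adjusted p = 0.078) and the coatomer subunit Copg2 (0.39, adjusted p = 0.27). A dimmer probe set of Copg2 was at 0.06. Of 21 genes of ER-associated degradation and its stress sensors 0 were called, with Edem3 at 0.55 (adjusted p = 0.11) and Ube2j1 at 0.39 (0.13). Without control line 1 the adjusted p was 0.069 for Tmed3, 0.065 for Lman1 and 0.075 for Uggt1, and without control line 2 it was 0.17, 0.16 and 0.21.

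The integrated stress response list, genes that ATF4 and its partners induce when translation initiation is limited, had 2 called members of 26. Of all genes, 0.865% were called. Aldh18a1, the first enzyme of proline synthesis from glutamate, had 11.56, 11.41, 11.44 and 11.46 in Sar1A, 10.54 and 10.50 in control line 1, and 10.69, 10.60 and 10.59 in control line 2. Slc7a5, the LAT1 transporter of large neutral amino acids, had 11.09, 10.98, 11.08 and 10.97 in Sar1A, 10.22 and 10.55 in control line 1, and 10.36, 10.18 and 9.98 in control line 2. Neither gene overlapped between the groups, as in all called probe sets. Aldh18a1 rose by 0.89 (limma adjusted p = 0.033) and Slc7a5 by 0.75 (0.046). Against Sar1B the values were 0.51 (adjusted p = 0.275, 95% interval 0.30 to 0.72) and 0.19 (-0.08 to 0.46). Without control line 1 the adjusted p was 0.065 and 0.066, and without control line 2 it was 0.16 and 0.19. At an unadjusted p under 0.05, 11 members were higher and 1 lower, where 11.3% and 8.53% of all genes were. The list median was 0.35, and 18 members had all Sar1A arrays above all control arrays, where 18.6% of all probe sets did. The cystine transporter Slc7a11 had the largest difference of the list, 1.74 (adjusted p = 0.11), followed, after Aldh18a1, by the transcription factor Atf4 with 0.81 (0.13) and asparagine synthetase (Asns) with 0.76 (0.081). The stress-induced transcription factors Ddit3 (CHOP) and Atf3 were at 0.26 and 0.02, and Chac1, a glutathione-degrading enzyme, at -0.04. In the Sar1B:H79G lines, Ddit3, Atf3 and Chac1 were 3.04, 2.71 and 1.76 above control. With quantile normalization the median of the list was 0.18. With it 8 members were higher and 2 lower, where 1070 and 1813 of all 14217 genes were. Against Sar1B the median was 0.11. There 3 members were higher and 0 lower at an unadjusted p under 0.05, where 427 and 780 of all 14217 genes were.

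Promoters of the list were searched for TGATGNAA on either strand, a form of the composite element bound by C/EBP and ATF factors. Sequences were the 250 bases before and the 50 bases after the gene start from RefSeq on GRCr8. Of 24 promoters of 23 genes that matched the list (Slc3a2 has 2 entries), 4 held it (16.7%), those of Chac1, Fgf21, Nupr1 and Trib3, against 1332 of 33469 promoters of all genes (3.98%). The 4 genes had differences of -0.04, 0.07, 0.44 and 0.38 from control, none of them called. The promoter of the called member Slc7a5, of the member with the largest difference, Slc7a11, and of Trib3, which holds a match, are shown 5′ to 3′ on the strand of the gene, with the match in capitals. They lie at chr19:66872363-66872662, chr2:136668215-136668514 and chr3:161275484-161275783 of GRCr8, each on the minus strand.
Slc7a5: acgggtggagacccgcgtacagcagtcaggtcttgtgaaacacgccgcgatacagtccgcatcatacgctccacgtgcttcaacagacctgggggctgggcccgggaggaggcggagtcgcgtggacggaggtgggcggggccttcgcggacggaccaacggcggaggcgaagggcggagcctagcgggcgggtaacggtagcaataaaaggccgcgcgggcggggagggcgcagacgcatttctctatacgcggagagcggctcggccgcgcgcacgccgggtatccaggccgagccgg
Slc7a11: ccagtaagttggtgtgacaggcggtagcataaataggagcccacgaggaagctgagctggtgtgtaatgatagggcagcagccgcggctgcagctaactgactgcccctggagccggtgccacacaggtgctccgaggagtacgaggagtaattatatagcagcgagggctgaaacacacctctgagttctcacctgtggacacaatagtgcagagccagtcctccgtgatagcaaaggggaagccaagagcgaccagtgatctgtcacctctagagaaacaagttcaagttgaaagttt
Trib3: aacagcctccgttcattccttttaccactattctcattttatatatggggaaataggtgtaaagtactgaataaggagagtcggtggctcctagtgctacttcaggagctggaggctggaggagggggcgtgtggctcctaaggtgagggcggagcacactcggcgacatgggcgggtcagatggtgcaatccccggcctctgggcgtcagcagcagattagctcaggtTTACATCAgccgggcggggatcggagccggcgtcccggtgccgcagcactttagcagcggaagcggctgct

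Only Trib3 of these 3 held the letters, and it held them on the strand opposite to the gene. A match is a description of the letters, and its absence in these windows says nothing of the factors.

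The 3 largest falls were those of Urad, Lcat and Apon. Urad, an enzyme of urate breakdown, had 9.47, 9.23, 9.26 and 9.17 in Sar1A, 11.24 and 11.15 in control line 1, and 11.45, 11.37 and 11.36 in control line 2. Lcat, the plasma enzyme that esterifies the cholesterol of lipoproteins, had 8.82, 8.69, 8.54 and 8.67 in Sar1A, 10.29 and 10.24 in control line 1, and 9.89, 9.86 and 9.88 in control line 2. Apon, an apolipoprotein, had 7.92, 7.82, 7.70 and 7.46 in Sar1A, 9.12 and 9.16 in control line 1, and 8.97, 8.88 and 8.97 in control line 2. All 4 Sar1A arrays lay below all 5 control arrays in each of the 3 genes, as the rule that named them required. Urad fell by 2.01, or 4.03-fold (standard error of the log2 difference 0.13, limma adjusted p = 0.030). Lcat fell by 1.39 (standard error 0.19, limma adjusted p = 0.042) and Apon fell by 1.31 (standard error 0.11, limma adjusted p = 0.030). Against Sar1B they were at -1.71 (95% interval -2.03 to -1.38), -0.52 (-0.98 to -0.06) and -0.67 (-0.94 to -0.40), at adjusted p of 0.084, 0.69 and 0.275. Hao1, the peroxisomal glycolate oxidase, fell by 1.15 and Acss3, a mitochondrial acyl-CoA synthetase, fell by 1.08. Sult1b1, a sulfotransferase, fell by 1.10 against control and differed by -0.03 from Sar1B. Further falls of 0.75 to 1.06 were those of the costimulatory ligand Icoslg, Prxl2a, Tafa4, the membrane repair protein Myof, Smim24, C1qtnf1, the electron transporter Cyb561, the ubiquitin ligase Rnf144b and the histone gene H3c1. Of these, Myof and Cyb561 were at -1.28 and -0.83 against Sar1B, and Rnf144b at 0.02. Of these, C1qtnf1 and Icoslg had another probe set, with -0.75 (adjusted p = 0.059) and -0.06. Over these 15 genes the adjusted p was 0.065 to 0.095 without control line 1 and 0.16 to 0.22 without control line 2.

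Genes of apoB lipoproteins were examined because the study asked how Sar1 isoforms act on apoB secretion. Of 20 measured, Lcat fell and the others were not called, where 0.865% of all genes were called. The list median was -0.07. The apolipoprotein gene Apon, which also fell, was not on this list. Apob itself had 12.01, 11.72, 11.72 and 11.71 in Sar1A, 12.17 and 12.08 in control line 1, and 11.53, 11.72 and 11.26 in control line 2. The control lines lay on either side of the Sar1A line, and the difference was -0.03 (95% interval -1.05 to 0.99). Mttp, the transfer protein that lipidates apoB, had 9.99, 9.71, 9.73 and 9.68 in Sar1A, 10.78 and 10.76 in control line 1, and 10.70, 10.73 and 10.57 in control line 2. All its Sar1A arrays lay below the controls, as did those of 10.4% of all probe sets. The difference of -0.94 had an interval of -2.04 to 0.15 (limma adjusted p = 0.27). The Sar1B:H79G lines, which enter the same fit, were at 8.31 and 9.56. The call depended on the fit. The adjusted p of Mttp was 0.0036 with only the lines compared, 0.0065 with the line as a random block and 0.0038 with each array as a replicate, and 0.42 and 0.52 without control line 1 or 2. Against Sar1B the value of Mttp was -1.33 (adjusted p = 0.64). At an unadjusted p under 0.05, 6 members of the list were lower and 1 higher than control, where 8.53% and 11.3% of all genes were. Compared with Sar1B, 4 were lower and 1 higher, where 780 and 427 of all 14217 genes were. The median against Sar1B was -0.25, and -0.01 for all genes. Apoc1 was at -0.84 (adjusted p = 0.14) and Apom at -0.69 (0.18) against control. With quantile normalization the median against control was -0.29. Lcat had an adjusted p of 0.074 when control line 1 was left out and of 0.17 when control line 2 was.

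Lipid synthesis genes held 0 calls, where 0.865% of all genes were called. Of 19 cholesterol biosynthesis genes 7 were higher and 0 lower than control at an unadjusted p under 0.05 (11.3% and 8.53% of all genes). With quantile normalization 3 and 2 of them were, against 1070 and 1813 of all 14217 genes. The median of the 19 genes was 0.24 (0.19 with quantile normalization), and -0.06 against Sar1B. The largest differences were those of Lbr (0.75, adjusted p = 0.12) and the desaturase Sc5d (0.65, adjusted p = 0.11), whose 2 dimmer probe sets had -0.30 and 0.13. Lss, the cyclase that makes lanosterol, was at 0.34 (adjusted p = 0.30) and Dhcr7, the last enzyme of cholesterol synthesis, at -0.11 (0.71). Among 19 genes of sterol uptake and SREBP control, 2 were higher, Insig1 at 0.90 (adjusted p = 0.080) and Srebf1 at 0.47 (0.15), and against Sar1B these were at -0.01 and 0.02. Of 24 genes of fatty acid synthesis 5 were higher and 1 lower (1 and 2 with quantile normalization), with the elongase Elovl2 at -1.20 (adjusted p = 0.066), Hacd3 at 0.66 (0.15) and the acyl-CoA synthetase Acsl5 at 0.30 (0.245). Of 31 triglyceride and lipid droplet genes 3 were higher and 4 lower. The lipid droplet protein Cidec was at -1.01 (adjusted p = 0.12) and the acyltransferase Gpam at 0.78 (0.063). Of 24 fatty acid oxidation genes 1 was higher and 2 lower, with Acadvl at -0.44 (0.093) and Etfb at -0.43 (0.18).

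Of 32 cytochromes P450 and flavin monooxygenases, oxidative enzymes of the liver, 0 were called, where 0.865% of all genes were. At an unadjusted p under 0.05, 11 were lower and 1 higher (8.53% and 11.3% of all genes), with a median of -0.22 (-0.25 with quantile normalization) and of -0.05 against Sar1B. Of the 32, 18 had all Sar1A arrays below all control arrays, as 10.4% of all probe sets did. Those named by the rule were Cyp27a1, the mitochondrial sterol 27-hydroxylase, at 0.70 (adjusted p = 0.075) and Fmo4 at -0.67 (0.12). A dimmer probe set of Fmo4 was at -0.10. Many members were dim, such as Cyp7b1, at 5.57 in Sar1A and a mean of 5.99 in control. Of 35 conjugation enzymes Sult1b1 fell, 18 members were positive and 17 negative, and 5 were higher and 4 lower (0 and 6 with quantile normalization). Of all 14217 genes, 1070 and 1813 were with quantile normalization. Of 43 plasma and acute-phase proteins 0 were called, 4 were higher and 7 lower (1 and 10 with quantile normalization), with heparin cofactor II (Serpind1) at 8.14 in Sar1A and 9.01 and 9.28 in the control lines (adjusted p = 0.0715) and antithrombin (Serpinc1) at a difference of -0.97 (0.27). Of 16 purine and urate genes Urad fell, 3 were higher and 2 lower. Of 40 amino acid and urea cycle genes 0 were called, with the transaminases Gpt and Tat at -1.08 (0.091) and -1.03 (0.11). Tat was at -1.85 against Sar1B (adjusted p = 0.22). Of 19 liver-enriched transcription factors 0 were called, with the bile acid receptor Nr1h4 at -0.66 (0.053) and Onecut2 at 0.69 (0.26). Dimmer probe sets of Onecut2 were at 0.53, 0.035 and -0.001. Of 32 transporters 0 were called, with Abcc2 at 0.73 (0.21) and Slc22a7 at -0.65 (0.28). Without control line 1 the adjusted p of Urad and of Sult1b1 was 0.065, and without control line 2 it was 0.16.

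Genes of protein synthesis, protein turnover and respiration had positive medians against control without a called member, where 0.865% of all genes were called. Of all genes, 11.3% were higher and 8.53% lower than control at an unadjusted p under 0.05. With quantile normalization 1070 and 1813 of all 14217 genes were. Of 41 cytosolic ribosomal protein genes 40 were positive, 30 were higher and 1 was lower at an unadjusted p under 0.05, with a median of 0.39. The examples were Rpl4 at 0.64 (adjusted p = 0.12) and Rplp0 at 0.59 (0.11). Against Sar1B the median was 0.11 with 0 higher and 0 lower, where 427 and 780 of all 14217 genes were. With quantile normalization the median against control was -0.03, with 1 higher and 2 lower, so that the positive median depended on the scaling. Proteasome genes had a median of 0.19 (-0.06 with quantile normalization), with 9 of 33 higher and 0 lower (4 and 4 with quantile normalization). Psme4 was at 0.69 (0.083) and Psma2 at 0.61 (0.091), and dimmer probe sets of Psme4 were at 0.41 and -0.28. Respiratory chain genes had a median of 0.16 (-0.09 with quantile normalization), with 7 of 48 higher and 1 lower (1 and 7 with quantile normalization), and Atp5f1a and Atp5f1b at 0.57 (0.055) and 0.53 (0.13). Cell cycle genes had 3 of 40 higher and 0 lower (2 and 4 with quantile normalization), with cyclin D2 (Ccnd2) at 0.59 (0.11) and Mki67 at 0.56 (0.31). Growth arrest genes had 3 of 21 higher and 2 lower, with Cdkn2b at 0.73 (0.19) and Gadd45g at 0.65 (0.11).

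Among the remaining lists, interferon response genes stood lowest against Sar1B. Of 25 measured, 8 were lower and 0 higher than Sar1B at an unadjusted p under 0.05, where 780 and 427 of 14217 genes were. The median against Sar1B was -0.40, and the Sar1B lines themselves stood at a median of 0.27 above control. In Sar1A 4 were lower and 0 higher than control (8.53% and 11.3% of all genes), with a median of -0.16. The immunoproteasome subunit Psmb9 was at -1.19 (adjusted p = 0.089) and Isg15 at -0.87 (0.44) against control, and at -0.94 (0.56) and -1.50 (0.77) against Sar1B. The Sar1B lines lay far apart for Isg15, at 11.91 and 10.21. The chemokine gene Cxcl10 was at -0.74 against control (0.13) and -1.46 against Sar1B (0.25). Of 43 matrix and adhesion genes 8 were higher and 2 lower, with the collagen Col5a2 at 1.78 (0.053) and the membrane protease Mmp14 at 1.82 (0.078), which in control lines 1 and 2 lay apart at 10.13 and 9.09. Of 22 immediate-early genes 4 were higher and 3 lower, with Ier3 at 0.83 (0.071) and Fosl1 at 0.47 (0.32). Of 16 glucocorticoid response genes 1 was higher and 2 lower, with Mt2A at 0.77 (0.36), and of 42 lysosomal genes 1 was higher and 2 lower, with Ctsl at 0.52 (0.14) and Gla at -0.52 (0.115). Spp1, a cholangiocyte marker that hepatoma cells also express, was at 1.27 (0.50) and Epcam at -0.45 (0.35).

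**Figure D3:**
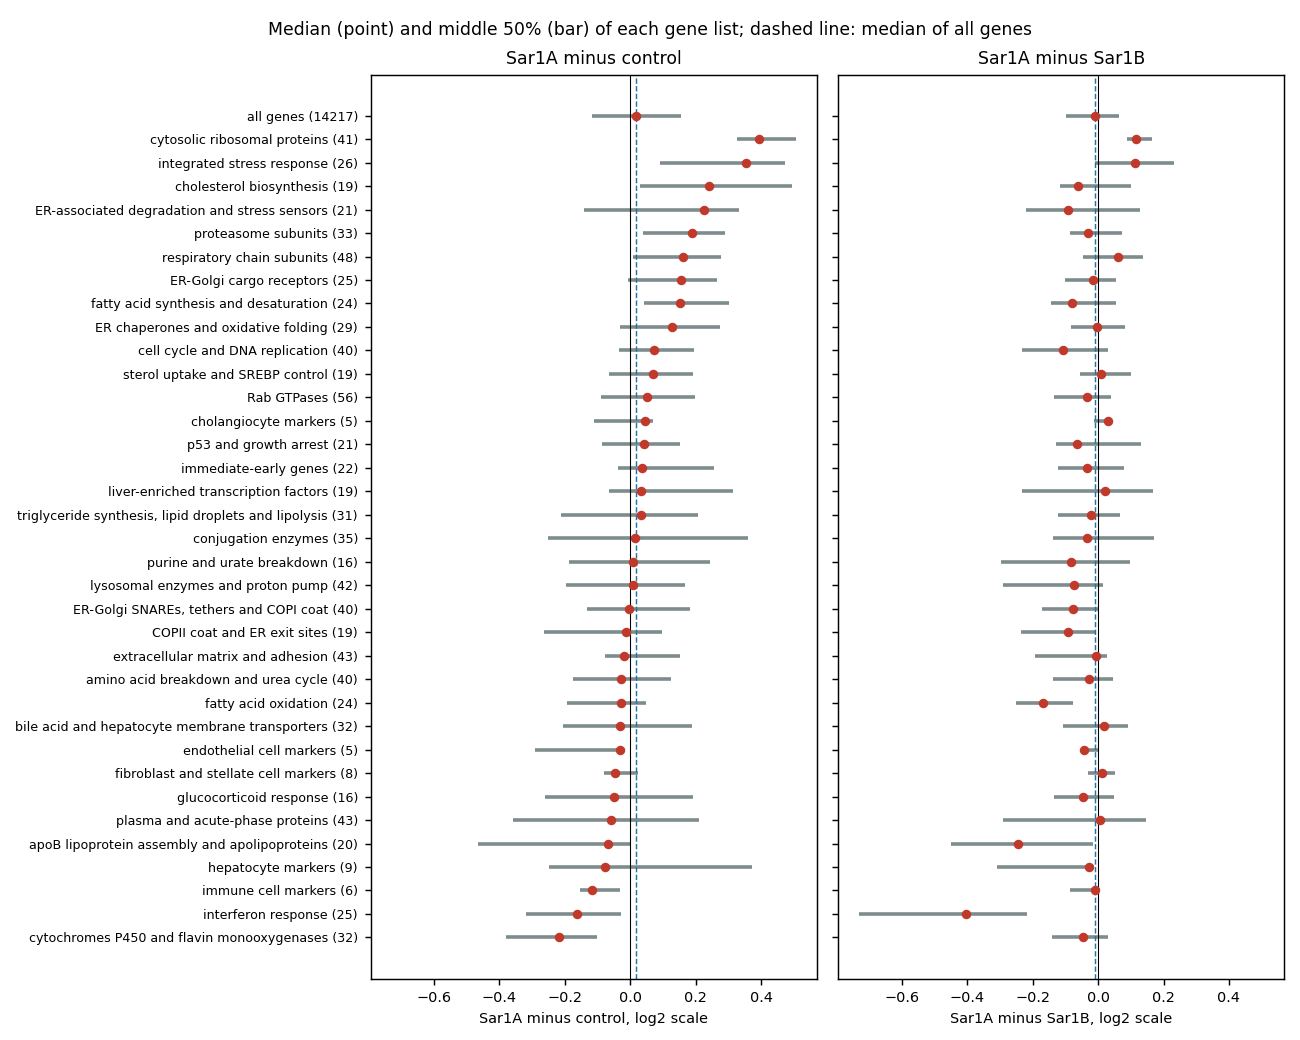
Median (points) and interquartile range (bars) of the differences of log2 signals over the measured members of each gene list, with their number in parentheses, for Sar1A minus control (left) and Sar1A minus Sar1B (right). The dashed lines mark the medians of all genes, 0.02 and -0.01, and ribosomal protein genes stood highest against control at 0.39 and interferon genes lowest against Sar1B at -0.40.

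Genes were also ordered along the chromosomes by the gene order of the GRCr8 reference, a view chosen after their values had been seen. For 9399 genes brighter than the median probe set and placed on a chromosome, a running median over 11 neighbouring genes was taken. It reached 0.3 or more in 284 and -0.3 or less in 28 of 9188 windows. There were 5 stretches of at least 20 genes, all higher in Sar1A than in control, with 129 genes in all (1.37% of those placed). They held 21 of the 108 called genes placed (19.4%), all of them rises. Since calls and running medians come from the same values, this is a description with no test.

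Both stretches on chromosome 10 were high in the Sar1A line against both reference groups. From Nherf1 to Myo15b (20 genes), the median difference was 0.66 from control and 0.62 from Sar1B, 19 genes were positive in each, and 9 were called against control. The 9 were Mrpl58, Nt5c, Jpt1, Sumo2, Nup85, Gga3, Mrps7, Grb2 and Tsen54. They differ in function, with a signalling adaptor (Grb2), a modifier protein (Sumo2), a nuclear pore subunit (Nup85) and a mitochondrial ribosomal protein (Mrps7) among them. Mrpl58 rose by 1.12 (limma adjusted p = 0.033), Nup85 by 0.98 (0.046), Mrps7 by 0.92 (0.033) and Sumo2 by 0.85 (0.034). Rab37 came directly before Nherf1 among the genes placed, just outside the stretch. From Ints2 to Mmd (28 genes), the median was 0.44 from control and 0.47 from Sar1B, 24 and 26 genes were positive, and Rps6kb1, Vmp1, Ptrh2, Mtmr4 and Mmd were called. The autophagy gene Vmp1 rose by 0.78 and the peptidyl-tRNA hydrolase Ptrh2 by 0.77. At an unadjusted p under 0.05, 18 of the 20 genes and 20 of the 28 genes were higher in Sar1A than in Sar1B, as 427 of all 14217 genes were. The stretches were chosen for their Sar1A values, which enter both differences, so these counts are a description. The median of the first stretch relative to the control mean was 0.05 and -0.05 in the control lines, -0.00 and 0.04 in the Sar1B lines and 0.11 and 0.10 in the Sar1B:H79G lines. For the second it was -0.03 and 0.03, -0.05 and 0.05, and -0.31 and -0.05. Chromosome 10 held 23 of the 108 called genes (21.3%) and 8.89% of the genes placed. For the 14 called genes of both stretches the adjusted p was 0.065 to 0.089 without control line 1 and 0.16 to 0.22 without control line 2.

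**Figure D4:**
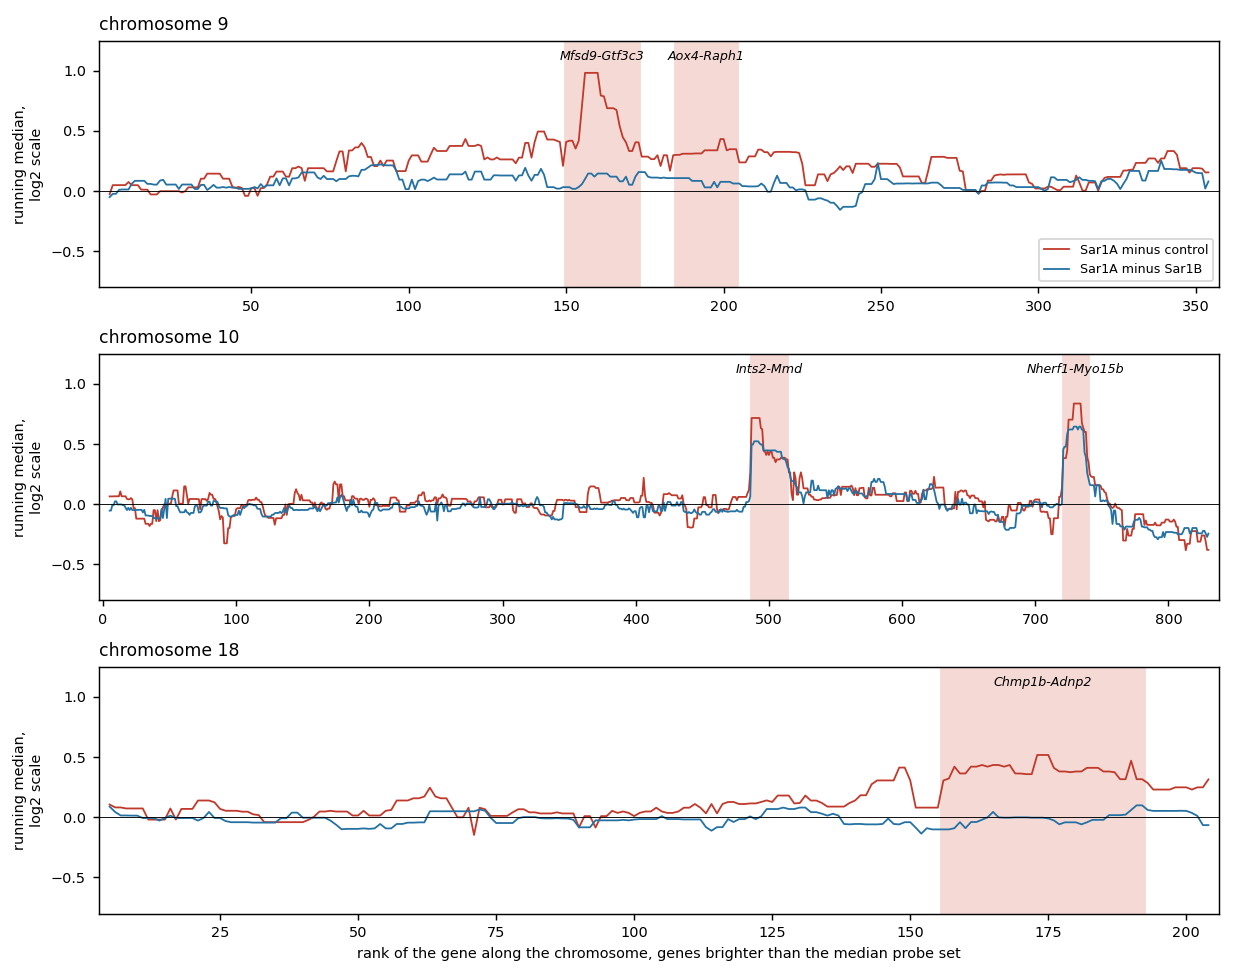
Running median over 11 neighbouring genes of the difference of log2 signals (y axis) by the rank of the gene along chromosomes 9, 10 and 18 (x axis), for Sar1A minus control (red) and Sar1A minus Sar1B (blue), with the 5 stretches shaded. On chromosome 10 both curves were high in the shaded stretches, to 0.72 and 0.84 against control, and on chromosomes 9 and 18 only the curve against control was.

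The other 3 stretches separated the control lines from all Sar1 lines. On chromosome 18, from Chmp1b to Adnp2 (37 genes), the median was 0.38 from control and -0.02 from Sar1B, and the tubulin gene Tubb6, Seh1l and Mbd1 were called. On chromosome 9, from Mfsd9 to Gtf3c3 (24 genes), it was 0.61 from control and 0.09 from Sar1B, with the peptidase Tpp2, Poglut2 and Wdr75 called and Col5a2 among the others. From Aox4 to Raph1 on the same chromosome (20 genes), it was 0.33 and 0.09, with Bmpr2 called. Relative to the control mean the Sar1B lines had medians of 0.48 and 0.47, 0.41 and 0.48, and 0.14 and 0.30 in these stretches. These differences coincide with the array series and cannot be told apart from it. All called genes of these stretches lost the call without control line 1 or 2.

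**Figure D5:**
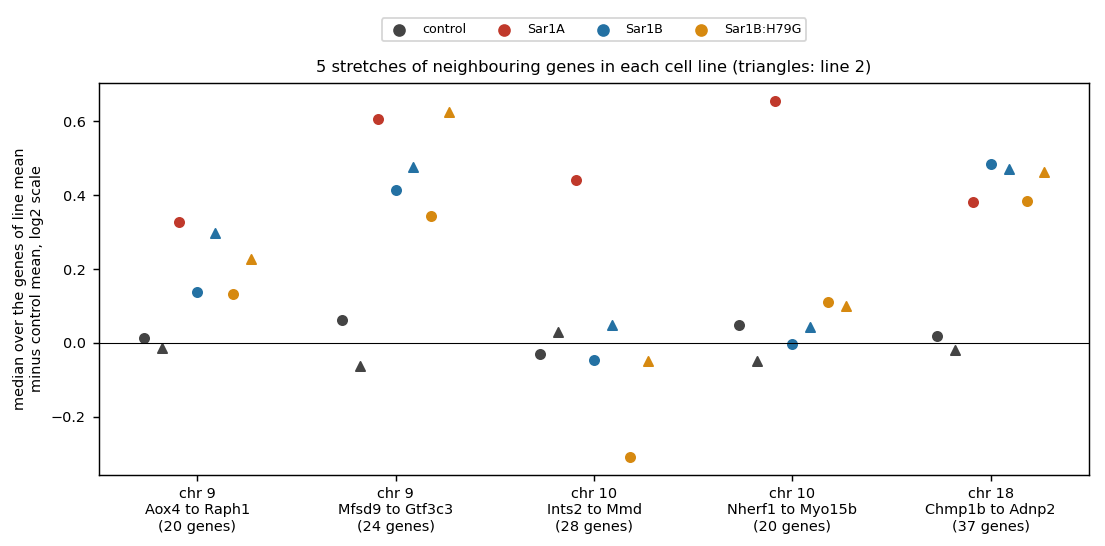
Median over the genes of each of the 5 stretches of the line mean minus the control mean (y axis, log2 scale), 1 point per cell line, with circles for line 1 or the only line and triangles for line 2. The Sar1A line stood alone at 0.44 and 0.66 in the chromosome 10 stretches and nearer to the other Sar1 lines in the rest.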

How the data were processed

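Affymetrix rat genome arrays had been run on total RNA of 7 lines, 25 arrays in all. The authors normalized signals by loess and the MAS 5 algorithm in CARMAweb, and deposited them on what the range of the values (1.64 to 15.4) shows to be a log2 scale. No detection calls were used here, and depth does not apply to arrays, whose number limits the precision. Of 31099 probe sets, 57 array controls were left out. Of the other 31042, 20826 had exactly 1 gene symbol, 436 several and 9780 none; 20758 were matched to the rat gene table and 0 symbols changed. A gene is its brightest probe set with exactly 1 symbol.

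The fit used the line means of all 4 groups (limma 3.58.1, R 4.3.3, 3 residual and 3.16 prior degrees of freedom) and Benjamini-Hochberg adjustment over 31042 probe sets. The methods' own test, SAM on single arrays, was not run, and each array as a replicate was tried instead. Other alternatives were the line as a random block (statmod 1.5.0), only the lines compared, quantile normalization, equal array medians, bright probe sets only, eBayes with a trend and robust settings, line numbers as a block, a threshold of 0.01, averaging the probe sets of each gene, and each line or array left out. A running median over 7 genes, and medians of the chromosome stretches under each alternative, were added after seeing the data. The fit was tested on simulated data. The study's description gives no separate cultures within a line, so that arrays measure technical spread.

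Genes were named by a rule: the 15 largest rises and 15 largest falls called against control among genes brighter than the median probe set (8.13) whose arrays did not overlap, the largest also called against Sar1B, the called members of each list or else the 2 with the largest difference, and genes the study measured otherwise. Further list members (Klhl12, Sec23b, Slc7a11, Atf4, Asns, Ddit3, Atf3, Chac1, Fgf21, Nupr1, Trib3, Apoc1, Apom, Cyp7b1 and Cxcl10), single markers, Akirin2, Fubp1 and genes of the chromosome stretches were named after their values were seen. The comparison, the lists and the rule were chosen with earlier results of these data known. Hmgcs1 and Ppia are not analysed here.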

Additional observations from a re-analysis of the deposited data

Results flagged for a closer look

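Rab37 stands out because its Sar1A minus Sar1B difference of 2.84 passed the test within the array series (limma adjusted p = 0.0017). In addition, 12 values of single arrays stood apart from the other arrays of their group for a named gene. They came out of 190 groups of arrays tested, where chance flags about 1 in 20 groups. Of the 12 values, 9 belonged to arrays 1 and 4 of the Sar1A line. Array 1 of the Sar1A line was high for Acss3 (9.57, the others 9.16 to 9.19), Ube2j1 (11.02, the others 10.90 to 10.92), Srebf1 (11.81, the others 11.63 to 11.65), Apob (12.01, the others 11.71 to 11.72) and Mttp (9.99, the others 9.68 to 9.73). It was low for Nr1h4 (7.73, the others 7.95 to 7.98) and Mmp14 (11.21, the others 11.50 to 11.51). Array 4 of the Sar1A line was high for Ykt6 (9.49, the others 9.31 to 9.33) and low for Slc22a7 (8.98, the others 9.14 to 9.15). Array 1 of control line 1 was low for Tmed3 (7.30, the others 7.52 to 7.60) and high for Cpd (9.84, the others 9.21 to 9.39), and array 3 of control line 2 was low for Tat (10.67, the others 10.90 to 10.98). Without array 1 of the Sar1A line, 34 of the 34 named genes called against control kept the call.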

How the results depend on the processing

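The number of calls depended strongly on what counted as a replicate. Against control it was 11251 (6777 higher, 4474 lower) with each array as a replicate, 5980 (4013 and 1967) with the line as a random block, 2330 (1726 and 604) in a fit of only the lines compared, and 1039 (722 and 317) with trend and robust settings. Against Sar1B these fits gave 3212, 1191, 0 and 10 calls, and 1376, 483, 0 and 6 were called in the same direction in both comparisons. With quantile normalization 368 probe sets were higher and 144 lower, and 31 were lower when only probe sets above the median were kept. At an adjusted p under 0.01, 1 probe set was higher and 0 lower. With the line number as a replicate block 1 was called, 1 higher and 0 lower, but the numbers only mark lines. Line differences with the same number correlated at 0.0071, 0.19 and 0.075 between groups, so the samples were not treated as paired. When single lines or arrays were left out, the count against control ranged from 0 to 654 (higher 0 to 532, lower 0 to 122), that against Sar1B from 0 to 26, and that in both from 0 to 3.

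Of the 34 called genes named, 0 changed direction under any alternative. All 34 kept the call with arrays as replicates, a random block and only the lines compared, 33 with quantile normalization (Slc7a5, adjusted p = 0.0549, was lost), 20 without 1 Sar1B line, 29 without 1 Sar1B:H79G line, and 0 without control line 1 or 2, with adjusted p of 0.065 to 0.095 and 0.12 to 0.22. Of 9 with several probe sets, 1 kept the call for their mean. The medians of the stretches ranged from 0.48 to 0.67 (Nherf1 to Myo15b), 0.35 to 0.53 (Ints2 to Mmd), 0.50 to 0.67 (Mfsd9 to Gtf3c3), 0.26 to 0.36 (Aox4 to Raph1) and 0.30 to 0.42 (Chmp1b to Adnp2). With 7 in place of 11 genes per window there were 3 stretches of at least 20. The number of lines, 1 against 2, limits all calls.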

Other observations

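Stretches of neighbouring genes also separated Sar1A from Sar1B where Sar1A and control were alike. They were found by the same running median, after their values had been seen, and have no test. On chromosome 4, from Abcg2 to Wbp1 (44 genes), the median was -0.38 against Sar1B and 0.03 against control, and the Sar1B lines stood at 0.36 and 0.37 relative to control. On chromosome 20, from Man1a1 to Gpr6 (24 genes), it was 0.41 and 0.08, with the Sar1B lines at -0.26 and -0.41. On chromosome 6, from Arhgap5 to Fkbp3 (28 genes), it was 0.78 and 0.15, and the Sar1B lines lay apart, at -1.03 and -0.24.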
